A study of Mus musculus with 12 samples.

Results

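The regulators of thermogenesis described here were followed through inguinal white adipose tissue (iWAT) of the mouse: the coactivator genes *Ppargc1a* and *Ppargc1b*, the nuclear receptor genes *Esrra*, *Esrrg* and *Ppara*, the corepressor gene *Nrip1*, and *Prdm16*, *Ebf2*, *Zfp516* and *Irf4*, which encode factors that act at the DNA of thermogenic genes. They were taken by name and not by a cut on their values, though earlier results of these data were known. All 10 were found among the 14159 genes with values. Polyadenylated RNA was sequenced from whole iWAT of Atf4WT and Atf4AKO mice, each kept at room temperature (RT) or exposed to cold at 5 °C for 24 h, with 3 libraries in each of the 4 groups. Atf4WT mice carried the floxed *Atf4* allele without Cre and were the littermates of Atf4AKO mice, in which Cre under the adiponectin promoter (AdipoqCre) deletes *Atf4* in adipocytes, both on a C57BL/6 background. The other cells of the tissue keep the gene in Atf4AKO mice, and neither the labels nor the methods give the age or sex of the mice used for these libraries. The labels call the 3 libraries of a group biological replicates.

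Brown and beige adipocytes burn fuel to make heat through UCP1 in the inner mitochondrial membrane. Cold acts on them through sympathetic nerves and cAMP, which turns on the coactivator PGC-1α, the product of *Ppargc1a*. PGC-1α and the related PGC-1β do not bind DNA themselves but work through nuclear receptors such as ERRα, ERRγ and PPARα, while RIP140, the product of *Nrip1*, sits on many of the same receptors and represses oxidative genes. PRDM16, EBF2, ZFP516 and IRF4 are known for setting or keeping the thermogenic program of brown and beige fat cells, and IRF4 is also a factor of lymphocytes. ATF4 is the effector of the integrated stress response and binds cAMP response elements (CREs) and composite C/EBP-ATF elements.

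After 24 h of cold, both PGC-1 genes and all 3 nuclear receptor genes were higher in Atf4WT and in Atf4AKO iWAT, by 2.35 to 5.95 times in the fit. *Nrip1* was the 1 member that fell in Atf4WT mice, to 0.552 of its RT level, and it was not lower by the same test in Atf4AKO mice. *Prdm16*, *Zfp516* and *Irf4* did not pass the test in either genotype, and *Ebf2* was lower by less than 1.5-fold. A gene is counted here as changed, in the way of the study, when its fold change exceeds 1.5 and its unadjusted p of limma is under 0.05. The Benjamini-Hochberg adjusted p over the 13404 genes tested is given beside it. By this rule 5 of the 10 members rose in Atf4WT mice and 1 fell, while 10.9% of all tested genes rose and 10.3% fell, 21.2% together. In Atf4AKO mice 5 members rose and 0 fell, beside 8.3% of all tested genes that rose and 8.92% that fell, 17.2% together. The 5 members that rose were the same in both genotypes. The median log2 fold change over the 10 members was 0.68 in Atf4WT and 0.75 in Atf4AKO mice, beside 0.0026 and −0.03 over all tested genes. The median is a description of a named list, and the members were not drawn at random from the genome.

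**Figure D1:**
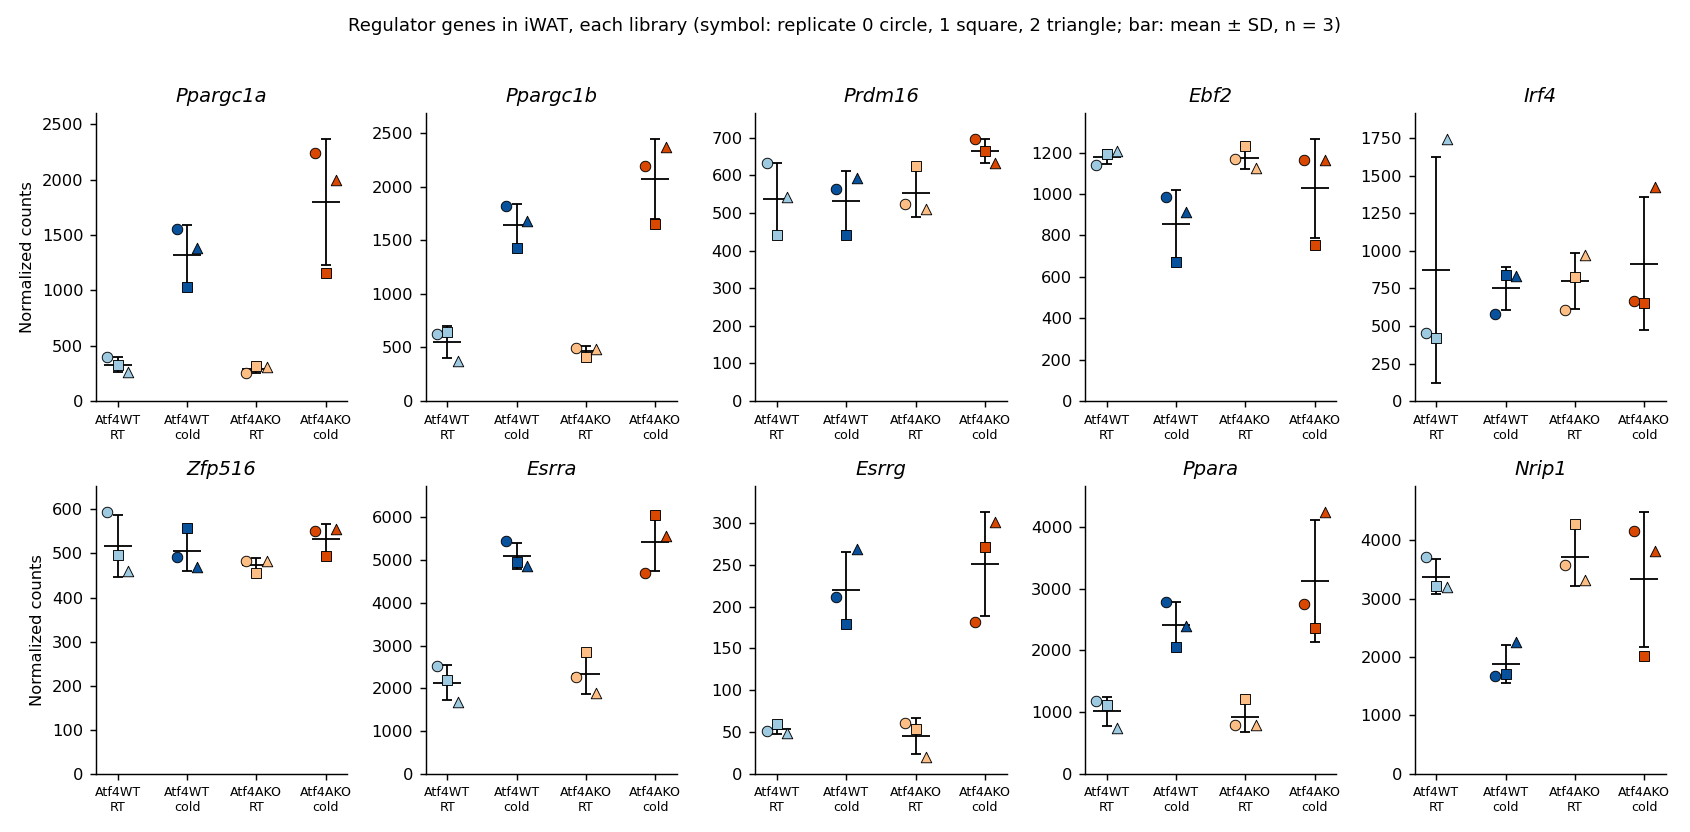
Normalized counts of the 10 regulator genes (y axis, from 0) in the 4 groups (x axis), with each library as a symbol (circle replicate 0, square replicate 1, triangle replicate 2) and the mean ± SD of 3 libraries as a bar. *Ppargc1a*, *Ppargc1b*, *Esrra*, *Esrrg* and *Ppara* lie higher in all cold libraries of a genotype than in its RT libraries, *Nrip1* lies lower in all cold Atf4WT libraries than at RT, as it does in 1 of the 3 cold Atf4AKO libraries, and 1 RT library of Atf4WT mice holds the highest *Irf4* value.

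The promoters show where letters known from CREs and C/EBP-ATF elements stand in front of members that changed. The RefSeq promoter set of GRCm38.p6, the same coordinates as mm10, held 11 promoters for 7 of the members (*Esrrg* 4, *Nrip1* 2, 1 each for the others) and those of *Ppargc1b* and *Zfp516* were not used here, while *Ebf2* had no entry in the set. In the 250 bases before the start, searched on both strands, the full CRE TGACGTCA was found in 0 of the 11 member promoters and in 1.55% of all 32851 promoters. Its half-site TGACG, which is part of the full CRE, was found in 2 of 11 (*Ppargc1a* and *Ppara*) and in 17.8% of all promoters. The C/EBP-ATF letters TGATGNAA were found in 2 of 11 (*Esrra* and the first *Nrip1* promoter) and in 3.45% of all promoters. AAGGTCA, the letters that estrogen-related receptors are known to bind, was found in 0 of 11 and in 4.08%. The 4 promoters with a match are printed below in the direction of transcription, with the matching letters in capitals. In *Ppargc1a* (minus strand) the match reads CGTCA, the half-site on the other strand, at bases −49 to −45 from the start, in *Ppara* (plus strand) it lies at −222 to −218, in *Esrra* (minus strand) at −227 to −220 and in *Nrip1* (minus strand) at −159 to −152. A match is a stretch of letters and no measured binding. The sequences are those of chr5:51567726-51567975 for *Ppargc1a*, chr15:85735526-85735775 for *Ppara*, chr19:6921809-6922058 for *Esrra* and chr16:76373828-76374077 for *Nrip1*.
Ppargc1a: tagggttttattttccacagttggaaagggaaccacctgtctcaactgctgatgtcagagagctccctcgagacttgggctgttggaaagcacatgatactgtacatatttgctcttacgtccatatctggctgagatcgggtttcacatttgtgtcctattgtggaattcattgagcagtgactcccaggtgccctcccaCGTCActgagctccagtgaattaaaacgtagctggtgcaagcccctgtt
Ppara: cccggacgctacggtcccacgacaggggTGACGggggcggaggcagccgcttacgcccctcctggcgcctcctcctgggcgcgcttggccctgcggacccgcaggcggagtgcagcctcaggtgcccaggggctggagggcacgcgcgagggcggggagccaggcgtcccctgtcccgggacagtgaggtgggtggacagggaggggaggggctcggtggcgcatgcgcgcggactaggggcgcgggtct
Esrra: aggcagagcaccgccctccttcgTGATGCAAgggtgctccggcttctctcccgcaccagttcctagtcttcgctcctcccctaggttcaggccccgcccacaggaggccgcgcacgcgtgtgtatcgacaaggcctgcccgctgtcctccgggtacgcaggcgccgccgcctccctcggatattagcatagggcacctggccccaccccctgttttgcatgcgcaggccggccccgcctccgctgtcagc
Nrip1: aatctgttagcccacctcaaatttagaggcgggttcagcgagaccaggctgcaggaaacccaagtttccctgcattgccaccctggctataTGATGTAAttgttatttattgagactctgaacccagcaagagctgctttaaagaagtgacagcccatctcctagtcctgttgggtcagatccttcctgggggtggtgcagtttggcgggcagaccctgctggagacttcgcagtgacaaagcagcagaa

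The libraries held 25719476 to 29105147 reads over the listed genes, and libraries of a group differed by more than counting error. *Esrrg* at RT had as few as 20.4 normalized counts in a library, and the other members had at least 253. *Atf4*, the targeted gene, had 4107 to 5669 normalized counts at RT and 5756 to 7644 after cold in Atf4WT libraries, against 1470 to 1639 and 788 to 1578 in Atf4AKO libraries, which do not overlap with them. Its log2 fold change between the genotypes after cold was −2.60 (SE 0.22, limma adjusted p = 0.000644). Marker genes of other cell types moved with the groups. All 12 listed B cell markers and all 14 T cell markers were called higher with cold in Atf4WT mice in limma, while edgeR and DESeq2 each called 7 of the 12 and all 14. In Atf4AKO mice 0 of them rose and 1 B cell marker (*Bank1*) was called lower, a call lost without replicate 0 or 2 at RT or replicate 1 after cold. The B cell markers summed to 4534 to 16136 normalized counts in the cold Atf4WT libraries and to 93.0 to 412 in the cold Atf4AKO libraries, and the T cell markers to 1284 to 10241 and 247 to 710. At RT the B cell sums were 154 to 4695 in Atf4WT and 157 to 710 in Atf4AKO libraries, the high one being replicate 2 of Atf4WT mice at RT. Genes without a read in some library are not listed, so no listed marker could be at 0 in a library. *Fcer2a* was the 1 B cell marker without values. The mean log2 level of the progenitor markers was lower in each cold library than in each RT library, and replicate 1 of each cold group had the lowest progenitor level of all. In whole tissue, fewer cells of a type and less RNA per cell cannot be told apart.

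*Ppargc1a* is a minus-strand gene of chromosome 5 (51454250 to 51567726, GRCm38 like the other positions). Its normalized counts were 398, 323 and 262 in the Atf4WT libraries at RT and 1555, 1029 and 1382 after cold. Those of Atf4AKO mice were 253, 318 and 303 at RT and 2237, 1159 and 2001 after cold. Every cold library thus held more *Ppargc1a* RNA than every RT library, and the cold libraries spread more widely in Atf4AKO (1799 ± 567, SD, n = 3) than in Atf4WT mice (1322 ± 268). The log2 fold change with cold was 2.01 in Atf4WT (SE 0.25, limma adjusted p = 0.000305) and 2.57 in Atf4AKO mice (SE 0.25, adjusted p = 8.13e-05). The half-site printed above lies in front of this gene.

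*Ppargc1b*, on the minus strand of chromosome 18, encodes PGC-1β, the close relative of PGC-1α. The Atf4WT libraries had 622, 644 and 375 normalized counts at RT and 1817, 1432 and 1678 after cold. For Atf4AKO mice the values were 495, 407 and 489 at RT and 2189.6, 1654 and 2369 after cold. Here too the RT and cold libraries did not overlap in either genotype. Cold raised it by 1.62 on the log2 scale in Atf4WT (SE 0.20, limma adjusted p = 0.000367) and by 2.15 in Atf4AKO mice (SE 0.20, adjusted p = 8.03e-05).

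*Esrra*, which encodes ERRα, a receptor without a known natural ligand that drives mitochondrial genes, is a minus-strand gene of chromosome 19 (6910977 to 6921813). It had 2510.0, 2195 and 1686 normalized counts in Atf4WT libraries at RT and 5455, 4957 and 4871 after cold. In Atf4AKO libraries the counts were 2257, 2842 and 1897 at RT and 4686, 6055 and 5557 after cold. Its log2 fold change was 1.27 in Atf4WT (SE 0.17, limma adjusted p = 0.000449) and 1.23 in Atf4AKO mice (SE 0.17, adjusted p = 0.000617). The response in Atf4AKO minus that in Atf4WT mice was −0.04, with a 95% interval of −0.57 to 0.48, the narrowest such interval among the 5 members that rose.

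*Esrrg*, the gene of ERRγ (chromosome 1, 187608791 to 188214885, plus strand), was the least abundant member. Atf4WT libraries had 50.5, 59.7 and 49.1 normalized counts at RT and 212, 179 and 269 after cold. Atf4AKO libraries had 60.4, 53.8 and 20.4 at RT and 182, 271 and 301 after cold. Its changes were of the size of those of *Ppargc1a*, with a log2 fold change of 2.02 in Atf4WT (SE 0.36, limma adjusted p = 0.00223) and 2.57 in Atf4AKO mice (SE 0.36, adjusted p = 0.000721). The low count of 1 Atf4AKO library at RT enters the second value, and without it the log2 fold change in Atf4AKO mice was 2.09.

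*Ppara* (chromosome 15, 85734983 to 85802819, plus strand) encodes the fatty acid-sensing receptor PPARα, which switches on genes of fatty acid oxidation. In Atf4WT mice it had 1182, 1113 and 739.9 normalized counts at RT and 2791, 2054 and 2398 after cold. In Atf4AKO mice the counts were 784, 1207 and 788 at RT and 2753, 2368 and 4245 after cold. Replicate 2 of the cold Atf4AKO group held the highest value of all, well above the other two of its group. The log2 fold change was 1.27 in Atf4WT (SE 0.25, limma adjusted p = 0.00371) and 1.74 in Atf4AKO mice (SE 0.25, adjusted p = 0.000847).

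*Nrip1*, the corepressor gene (chromosome 16, 76287400 to 76373827, minus strand), went the other way. Atf4WT libraries had 3720.0, 3213 and 3199 normalized counts at RT and 1668, 1706 and 2254 after cold. In Atf4AKO libraries there were 3573, 4281 and 3318 at RT and 4169, 2016 and 3817 after cold. The Atf4WT groups are well apart, whereas 2 of the 3 cold Atf4AKO libraries stayed within the RT range and the third, replicate 1, lay among the cold Atf4WT libraries. *Nrip1* fell in Atf4WT mice by 0.86 on the log2 scale (SE 0.23, limma adjusted p = 0.0177). In Atf4AKO mice the log2 difference was −0.22 (95% interval −0.74 to 0.29, adjusted p = 0.515). Leaving out replicate 1 of the cold Atf4AKO group gave 0.11 in place of −0.22.

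*Ebf2*, an early B cell factor family gene that marks brown and beige precursors, is a plus-strand gene of chromosome 14 (67233292 to 67430918). The Atf4WT libraries had 1141, 1191 and 1207 normalized counts at RT and 985, 669 and 913 after cold. The Atf4AKO libraries had 1168, 1234 and 1126 at RT and 1165, 753 and 1164 after cold. At RT the libraries were close to each other, with a coefficient of variation of 2.93% in Atf4WT and 4.6% in Atf4AKO mice, and after cold they spread to 19.3% and 23.1%. The log2 difference with cold was −0.48 in Atf4WT (SE 0.17, limma adjusted p = 0.0548) and −0.22 in Atf4AKO mice (SE 0.17, adjusted p = 0.369). Averaged over the genotypes it was −0.35 (SE 0.12, adjusted p = 0.0367), and in this comparison of 6 cold with 6 RT libraries an adjusted p under 0.05 was reached by 44.8% of all tested genes and by 7 of the 10 members. Its lowest values, 669 and 753, were in replicate 1 of each cold group. These were the 2 libraries with the lowest progenitor level, 9.43 and 9.15 as the mean log2(normalized count + 1) of the list, against 10.39 to 11.50 in the rest. Of the 8 progenitor markers 4 were called lower with cold in each genotype, but without replicate 1 of the cold Atf4WT group 1 was in Atf4WT mice (*Col1a1* went from −1.49 to −0.93 and *Ly6a* from −0.71 to −0.46), and without replicate 1 of the cold Atf4AKO group 2 were in Atf4AKO mice. The summed level was 42042 to 55991 normalized counts at RT and 10960 to 35324 after cold in Atf4WT, and 39618 to 58842 and 10298 to 30094 in Atf4AKO libraries. The part of these cells in the *Ebf2* values was not tested. Leaving out replicate 0 of the cold Atf4WT group took the Atf4WT difference to −0.59 and over the threshold. Over all alternatives the *Ebf2* difference ran from −0.59 to −0.31 in Atf4WT and from −0.33 to −0.01 in Atf4AKO mice. With the lymphocyte level as a covariate, the limma adjusted p of the value averaged over the genotypes was 0.0947.

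*Prdm16* (chromosome 4, 154316125 to 154636873, minus strand) encodes the cofactor known for steering precursors to the brown and beige fate. Counts of 632, 441 and 542 at RT and 564, 442 and 592 after cold were seen in Atf4WT mice. In Atf4AKO mice they were 524, 626 and 511 at RT and 696, 666 and 633 after cold. The Atf4WT groups overlap fully, with a log2 difference of −0.01 (95% interval −0.34 to 0.32, limma adjusted p = 0.966). The Atf4AKO groups are apart by a narrow margin, with a log2 difference of 0.27 (95% interval −0.06 to 0.60, adjusted p = 0.213).

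*Zfp516*, on the plus strand of chromosome 18, encodes a zinc finger protein known to bind the *Ucp1* promoter. All 12 libraries held between 455 and 594 normalized counts. The log2 difference with cold was −0.03 in Atf4WT (95% interval −0.28 to 0.22, limma adjusted p = 0.885) and 0.17 in Atf4AKO mice (95% interval −0.08 to 0.42, adjusted p = 0.293). Its SE, 0.11 on the log2 scale, was the smallest of the members. The Atf4WT libraries overlap, and the Atf4AKO libraries lie at 455 to 483 at RT and 494 to 556 after cold. RT and cold libraries without overlap were thus found for 7 of the 10 members in Atf4WT and for 7, *Prdm16* and *Zfp516* among them, in Atf4AKO mice, beside 46.8% and 41.7% of all tested genes.

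*Irf4* (chromosome 13, 30749226 to 30766976, plus strand) had the largest coefficients of variation of the members among Atf4WT libraries at RT and Atf4AKO libraries after cold. Atf4WT libraries had 456, 422 and 1745 normalized counts at RT and 582, 839 and 831 after cold. Atf4AKO libraries had 605, 823 and 976 at RT and 669, 652 and 1429 after cold. They were 86.2% in Atf4WT mice at RT and 48.4% in Atf4AKO mice after cold, each through replicate 2. The log2 difference with cold was 0.09 in Atf4WT (95% interval −0.98 to 1.16, limma adjusted p = 0.908) and 0.12 in Atf4AKO mice (95% interval −0.95 to 1.19, adjusted p = 0.878), the widest intervals of any member. Without replicate 2 of Atf4WT mice at RT, *Irf4* would pass the threshold in that genotype, with a log2 fold change of 0.75 (unadjusted p = 0.0438, adjusted p = 0.113). The mean log2(normalized count + 1) of the B and T cell markers was 7.24 to 9.76 in the cold Atf4WT libraries, where *Irf4* was at 582 to 839, and 3.34 to 5.07 in the cold Atf4AKO libraries, where it was at 652 to 1429. The high *Irf4* library of Atf4WT mice at RT had a lymphocyte level of 7.11, above the 3.70 and 4.07 of the other two, and the high library of cold Atf4AKO mice had 3.97. *Irf4* was thus high in 1 library with and in 1 without a high lymphocyte level. In the cold Atf4WT libraries it was at 582, 839 and 831 with lymphocyte levels of 7.24, 9.29 and 9.76. The part of lymphocytes in the *Irf4* values was not tested.

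**Figure D2:**
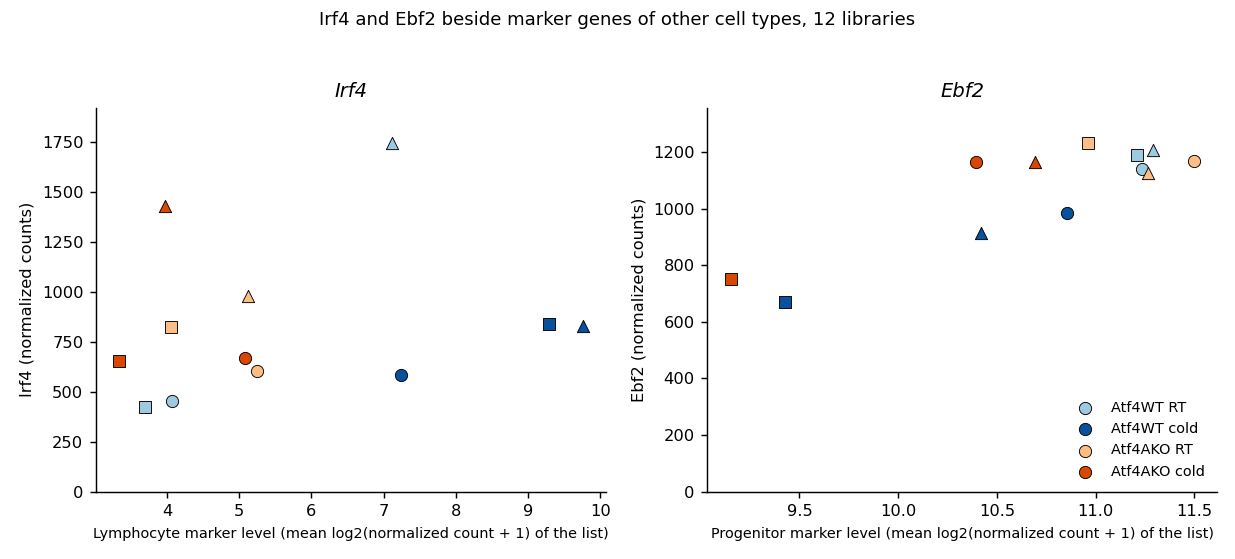
Normalized counts of *Irf4* (left, y axis) against the lymphocyte marker level and of *Ebf2* (right) against the progenitor marker level (x axes, mean log2(normalized count + 1) of each list), 12 libraries coloured by group with symbols for replicates as above. The 2 highest *Irf4* values, 1745 and 1429, stand at lymphocyte levels of 7.11 and 3.97, and the 2 lowest *Ebf2* values, 669 and 753, stand at the 2 lowest progenitor levels.

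The next comparison asks whether loss of ATF4 in adipocytes changed the members at a given temperature. At RT 0 of the 10 members differed by the rule of the study, in the limma fit as with edgeR and DESeq2, and 0 had an unadjusted p under 0.05, beside 0.463% of all tested genes called. The log2 differences of Atf4AKO from Atf4WT ran from −0.37 for *Esrrg* to 0.18 for *Irf4*, and the libraries of the genotypes overlapped for each of the 10, while 6.3% of all tested genes did not overlap. *Irf4* would be called without replicate 2 of Atf4WT mice (log2 difference 0.84, adjusted p = 0.9999).

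After cold, *Nrip1* was the 1 member called, 1.71 times as high in Atf4AKO as in Atf4WT iWAT (log2 difference 0.77, 95% interval 0.26 to 1.29, limma unadjusted p = 0.00694, adjusted p = 0.167). It was among 48 genes called higher, 0.358% of those tested, whereas 6.04% were called lower, 6.4% in all. The cold groups of *Nrip1* nevertheless overlap, because replicate 1 of Atf4AKO mice (2016) lies below the highest Atf4WT library (2254). Without replicate 0 of Atf4AKO mice the log2 difference was 0.58 and the call was lost. By adjusted p, passed by 0.0298% of all tested genes in limma, 0 of the members passed in limma and edgeR and 1, *Nrip1*, in DESeq2 (adjusted p = 0.0143), where 591 genes or 4.17% passed. The other 9 members were also higher in cold Atf4AKO than in cold Atf4WT iWAT, by 0.08 to 0.41 on the log2 scale and without a call, and the median over the 10 was 0.29 against 0.05 over all tested genes. The largest of these, *Ppargc1a*, had a log2 difference of 0.41 (95% interval −0.13 to 0.95), and it would be called without replicate 1 of Atf4AKO mice (0.70, unadjusted p = 0.00618). *Prdm16* was the 1 member whose cold libraries did not overlap between the genotypes, with 442 to 592 in Atf4WT and 633 to 696 in Atf4AKO mice (log2 difference 0.33, 95% interval −0.0018 to 0.66, adjusted p = 0.431), beside 16.5% of all tested genes without overlap.

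The lymphocyte markers differ between the cold groups in the opposite direction, and they take a larger share of the reads in the Atf4WT libraries. With the lymphocyte level of each library as a covariate, the differences of *Ppargc1b*, *Esrra*, *Esrrg* and *Ppara* between the cold groups changed sign (−0.18, −0.58, −0.21 and −0.44), while that of *Nrip1* was 1.08 (unadjusted p = 0.0330, adjusted p = 0.996). In this fit *Irf4* was also called, at 1.93 (adjusted p = 0.996). The lymphocyte level separates the cold genotypes, with 7.24 to 9.76 in Atf4WT and 3.34 to 5.07 in Atf4AKO libraries, so that among the cold libraries the covariate and the genotype cannot be told apart.

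Whether the cold response itself depended on the genotype was tested as the difference of the responses. In the limma fit 0 of the 10 members passed and 0 had an unadjusted p under 0.05, beside 4.63% of all tested genes called. The largest differences were 0.64 for *Nrip1* (95% interval −0.09 to 1.37, adjusted p = 0.811), 0.57 for *Ppargc1a* (−0.20 to 1.33, adjusted p = 0.915), 0.55 for *Esrrg* (−0.57 to 1.67) and 0.53 for *Ppargc1b* (−0.11 to 1.16). The fall of *Nrip1* in Atf4WT mice and the lack of a call in Atf4AKO mice are therefore not shown to differ. DESeq2 on the recovered reads called 1 member, *Nrip1*, by unadjusted p (0.69, adjusted p = 0.611), beside 4.72% of all genes. With the lymphocyte level as a covariate 1 member was called, *Esrra* (−0.69, unadjusted p = 0.0138, limma adjusted p = 0.931), with log2 fold changes of 1.83 in Atf4WT and 1.13 in Atf4AKO mice, beside 2.39% of all genes. With array weights and all 12 libraries, 3 members were called (*Ppargc1a* 0.88, *Nrip1* 0.83 and *Ppargc1b* 0.75), beside 5.03% of all genes. Their limma adjusted p was 0.354 or more. Without replicate 1 of the cold Atf4AKO group, the same 3 members were called (*Nrip1* 0.97, *Ppargc1a* 0.86 and *Ppargc1b* 0.68), all with limma adjusted p of 0.808 or more, beside 3.78% of all genes. That library had the lowest *Ppargc1a*, *Ppargc1b*, *Ppara*, *Ebf2*, *Irf4* and *Nrip1* values of its group and the highest *Esrra* value. It also had the lowest progenitor and macrophage levels of all 12 libraries (9.15 and 8.48) and the highest skeletal muscle level of its group (7.48).

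**Figure D3:**
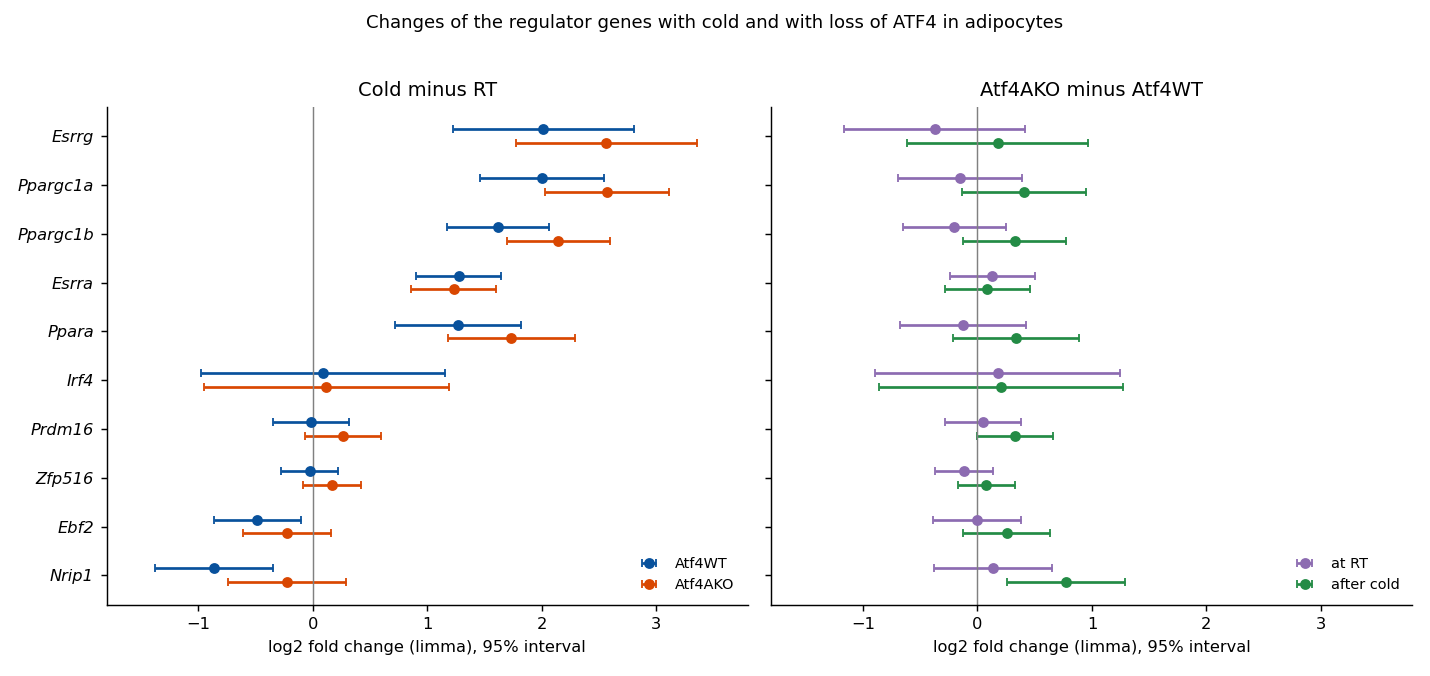
Log2 fold changes of the 10 regulator genes (x axis) with 95% intervals of the limma fit, on the left for cold against RT in Atf4WT (blue) and Atf4AKO mice (orange), on the right for Atf4AKO against Atf4WT mice at RT (purple) and after cold (green). On the left the intervals of 5 genes lie above 0 in both genotypes and those of *Nrip1* and *Ebf2* lie below 0 in Atf4WT mice only, and on the right the interval of *Nrip1* after cold is the only one above 0.

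Ratios within a library do not depend on how the library was scaled, and 3 of them were compared between cold and RT with an exact permutation test in which libraries were exchanged within a genotype (two-sided, 400 arrangements, smallest possible p 0.005), with p adjusted over the 3. Within 1 genotype alone, 3 libraries against 3 cannot give a p under 0.1. The log2 ratio of *Ppargc1a* to *Nrip1*, coactivator over corepressor, was −3.22, −3.31 and −3.60 in Atf4WT libraries at RT and −0.10, −0.73 and −0.71 after cold. In Atf4AKO libraries it was −3.82, −3.75 and −3.45 at RT and −0.90, −0.80 and −0.93 after cold. The rise with cold was 2.87 in Atf4WT and 2.79 in Atf4AKO mice and 2.83 on average (exact permutation p = 0.005, adjusted p = 0.0075). In the cold Atf4AKO libraries *Ppargc1a* ranged from 1159 to 2237 and *Nrip1* from 2016 to 4169, both lowest in replicate 1. Their log2 ratio lay between −0.93 and −0.80 there (SD 0.07, n = 3). The SD of this log2 ratio was 0.36 in the cold Atf4WT libraries and 0.20 at RT in each genotype. *Ppargc1a* alone was already higher in every cold library than in every RT library. The p of this ratio therefore repeats that rise and is no separate test of *Nrip1*.

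The ratio of *Esrrg* to *Esrra* rose as well. Its log2 was −5.61 to −5.07 in Atf4WT libraries at RT and −4.78 to −4.17 after cold, and −6.47 to −5.20 and −4.68 to −4.20 in Atf4AKO libraries. The mean rise was 1.04 (exact permutation p = 0.005, adjusted p = 0.0075), with no overlap in either genotype. *Ppargc1a* gained on *Ppargc1b* by less, 0.41 on average (exact permutation p = 0.015, adjusted p = 0.015). That log2 ratio was −0.99 to −0.51 at RT and −0.48 to −0.22 after cold in Atf4WT libraries, and the Atf4AKO groups, −0.97 to −0.36 and −0.51 to 0.03, overlap. The rise was 0.39 in Atf4WT and 0.43 in Atf4AKO mice. With same-numbered libraries taken as pairs, the mean rise of 0.41 had an exact permutation p of 0.0625.

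**Figure D4:**
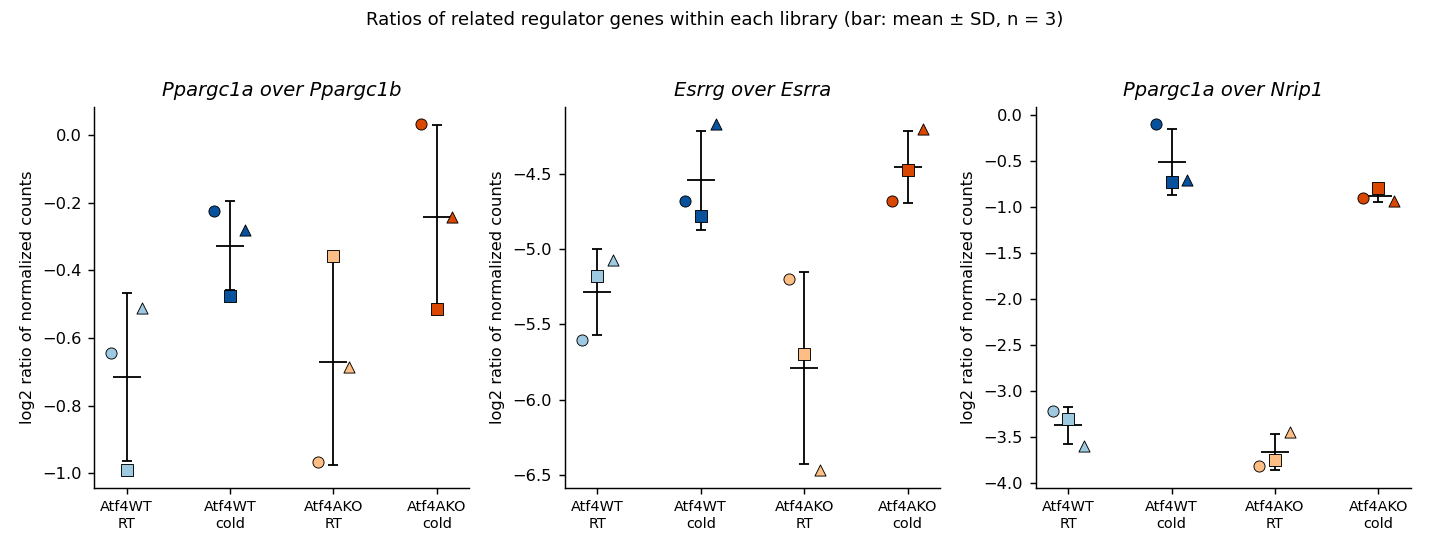
Log2 ratio of normalized counts within each library (y axes) for *Ppargc1a* over *Ppargc1b*, *Esrrg* over *Esrra* and *Ppargc1a* over *Nrip1*, by group (x axis), with libraries as symbols and the mean ± SD of 3 libraries as a bar. The cold libraries lie above the RT libraries of their genotype for *Esrrg* over *Esrra* and for *Ppargc1a* over *Nrip1*, and the Atf4AKO groups overlap for *Ppargc1a* over *Ppargc1b*.

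Levels were compared between members as normalized counts per kilobase of the merged exons of GENCODE vM21. *Esrra* was highest and *Esrrg* lowest in all 4 groups, with 486 ± 94.8 and 8.56 ± 0.921 normalized counts per kilobase in Atf4WT mice at RT (SD, n = 3) and 1161 ± 71.9 and 35.5 ± 7.34 after cold. At RT *Nrip1* came next to *Esrra* with 295 ± 25.9 in Atf4WT and 325 ± 43.6 in Atf4AKO mice, and its libraries overlap with those of *Ppara*, the third. *Ppargc1a* was the ninth, with 49.7 ± 10.3 in Atf4WT and 44.2 ± 5.16 in Atf4AKO mice, above *Esrrg* alone. After cold *Ppara* and *Ppargc1b* were the second and the third, at 629 and 412 in Atf4WT and 814 and 519 in Atf4AKO mice, and did not overlap with each other in either. *Ppargc1a* reached 201 ± 40.7 in Atf4WT mice, where *Nrip1* had come down to 164 ± 28.6, and 273 ± 86.0 in Atf4AKO mice, where *Nrip1* was at 291 ± 101. In both genotypes the cold libraries of these neighbours overlap, so the order of coactivator and corepressor after cold is not resolved. *Irf4* and *Ebf2* followed in both, and *Prdm16* and *Zfp516* had means between 57.2 and 71.3 in every group.

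**Figure D5:**
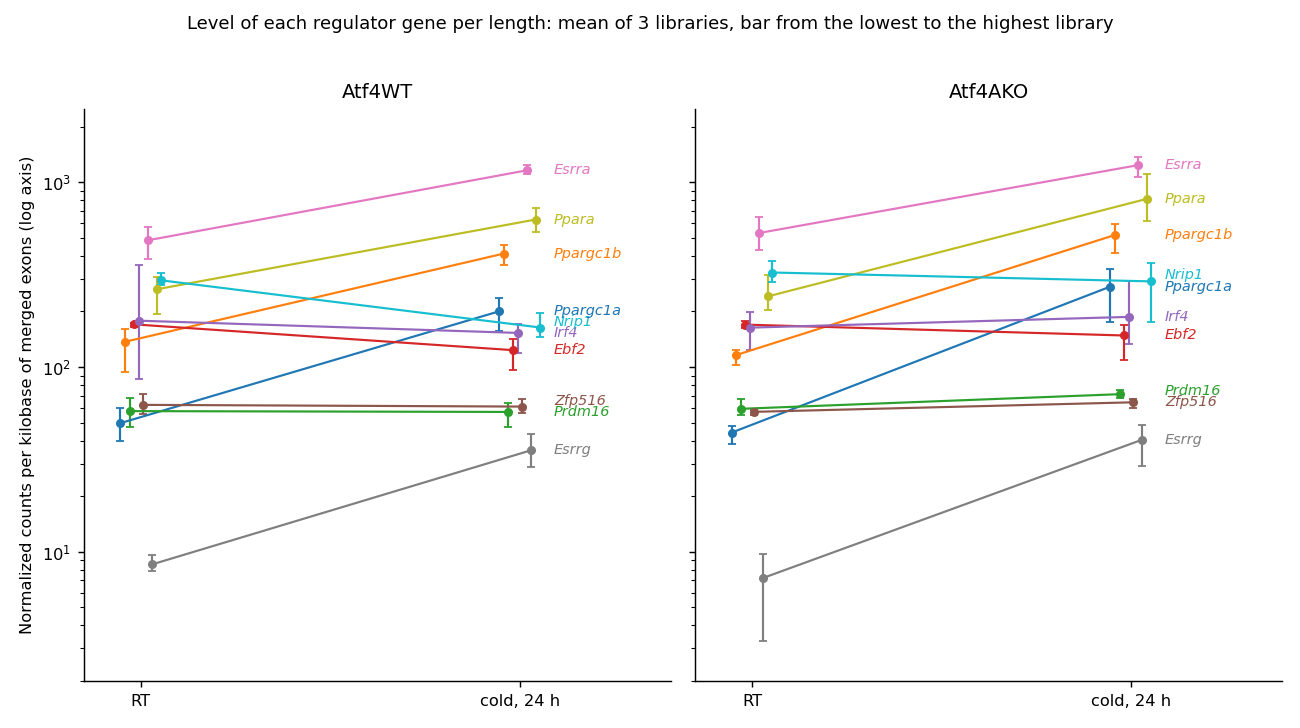
Normalized counts per kilobase of merged exons (y axis, log scale) of the 10 regulator genes at RT and after 24 h of cold (x axis) in Atf4WT (left) and Atf4AKO mice (right), as means of 3 libraries with bars from the lowest to the highest library. *Ppargc1a* climbs from 49.7 to 201 in Atf4WT and from 44.2 to 273 in Atf4AKO mice and passes the means of *Prdm16*, *Zfp516*, *Ebf2* and *Irf4*, while *Nrip1* descends in Atf4WT mice.

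The partners and targets of the members were taken from named lists. With cold 10.9% of all tested genes rose and 10.3% fell in Atf4WT mice, and 8.3% and 8.92% in Atf4AKO mice. Of 16 other nuclear receptors and their partners, 0 rose and 2 fell in Atf4WT mice, *Thra*, the thyroid hormone receptor α gene (log2 fold change −0.69, limma adjusted p = 0.000819), and *Nr1d1*, a clock gene (−0.64, adjusted p = 0.0577). The call of *Nr1d1* was lost without replicate 1 of Atf4WT mice at RT (−0.43) or replicate 2 after cold (−0.44), with array weights (−0.58) and with the lymphocyte level as a covariate (−0.26). In Atf4AKO mice 2 rose, *Rxrg* (0.67, adjusted p = 0.0079) and the low-count *Esrrb* (1.70, adjusted p = 0.0829), and *Thra* had −0.53, under the 1.5-fold limit. The list medians were 0.01 in Atf4WT and 0.09 in Atf4AKO mice. Of 25 other cofactors 3 rose in Atf4WT mice. *Perm1*, named for its induction by PGC-1 and the ERRs in muscle, had 20.2, 19.2 and 122 normalized counts at RT and 699.5, 429 and 468 after cold in Atf4WT mice (log2 fold change 3.79, adjusted p = 0.000796), and 22.3 to 27.9 at RT and 491 to 811 after cold in Atf4AKO mice (4.61, adjusted p = 0.000341). The RT library with 122 was also the one with the highest skeletal muscle marker level of all, 11.57 as the mean log2(normalized count + 1), against 4.14 to 4.72 in the other RT libraries, and without it the log2 fold change in Atf4WT mice was 4.65. The cold Atf4WT library with 699.5 had a muscle level of 10.10, and replicate 1 of the cold Atf4AKO group had 7.48. Among the members, the library with 10.10 held the highest *Ppargc1a*, *Ppargc1b*, *Esrra* and *Ppara* values of its group, but not the highest *Esrrg* value. The RT library with 11.57 held the lowest values of its group for these members and for *Esrrg*. The part of muscle in the values of *Perm1* and of the members was not tested. The other two cofactor genes were *Lcor*, a ligand-dependent corepressor (0.76), and *Kdm6b*, a histone demethylase (0.68). In Atf4AKO mice *Perm1* and *Kdm6b* rose and *Hdac9*, a histone deacetylase gene, fell (−0.91, adjusted p = 0.0237).

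Among 30 other DNA-binding factors with values, 3 rose and 1 fell with cold in Atf4WT mice, and 2 rose and 1 fell in Atf4AKO mice, with medians of 0.01 and 0.04. Over all tested genes 10.9% rose and 10.3% fell in Atf4WT mice, and 8.3% and 8.92% in Atf4AKO mice. *Zfp423*, a gene known for holding the white state against EBF2, had 1338, 1622 and 1222 normalized counts at RT and 789.9, 671 and 664 after cold in Atf4WT mice and fell by 0.97 on the log2 scale (limma adjusted p = 0.00072), a call lost with the lymphocyte level as a covariate (−0.57). In Atf4AKO mice its log2 difference was −0.48 (adjusted p = 0.027), under the 1.5-fold limit. *Tfeb*, of lysosomal genes, was at the 1.5-fold limit in Atf4WT mice (0.60, adjusted p = 0.00148) and fell under it in 5 alternatives, edgeR among them (0.57 to 0.58), and *Cebpb*, a partner of PRDM16 and of cAMP signalling, rose in both genotypes (0.95 and 0.79). *Irf8*, the third that rose in Atf4WT mice (1.23, adjusted p = 0.0221), is an immune cell gene and came to −0.073 with the lymphocyte level as a covariate. *Atf2* rose (0.60) and *Zbtb16* fell (−1.85) in Atf4AKO mice only by this rule, and the difference was not called. Of 9 factors of mitochondrial biogenesis, *Polrmt*, the mitochondrial RNA polymerase gene, rose in Atf4WT (0.87) and Atf4AKO mice (0.95), and 5 of the 9 had an adjusted p under 0.05 in each genotype, all of them higher, beside 17% and 14.8% of all tested genes.

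The genes that the members are known to drive moved further. Of 29 thermogenic and oxidative target genes with values, 24 rose in Atf4WT and 25 in Atf4AKO mice and 0 fell, with medians of 1.69 and 1.77 on the log2 scale. Of all tested genes 10.9% rose in Atf4WT and 8.3% in Atf4AKO mice. *Ucp1* went from 204 to 685 normalized counts at RT to 73632 to 94771 after cold in Atf4WT mice (log2 fold change 7.67) and from 298 to 1097 to 81033 to 119558 in Atf4AKO mice (7.51). *Elovl3*, of very long chain fatty acid synthesis, rose by 7.75 and 8.04, and *Gk*, the glycerol kinase gene, by 4.29 and 4.56. Between the cold groups 0 of the 29 were called in limma, as in edgeR and DESeq2. In limma 6.4% of all tested genes were called there, 0.358% higher. Of the 29, 2 had an unadjusted p under 0.05 in limma, and the median was 0.21 higher in Atf4AKO mice. For the difference of the cold responses limma called 1 higher, *Cpt1b*, while edgeR called 1 and DESeq2 2, all higher. The shares of all genes called were 4.63%, 4.42% and 4.72%. At RT limma and edgeR called 0 of the 29, and DESeq2 called 1 lower in Atf4AKO mice, among 110 genes called in all.

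Genes whose pattern was most like that of a member were listed by the Pearson correlation of log2(normalized count + 1) over the 12 libraries, among 11842 genes with a mean of at least 50. These coefficients are descriptions over 12 libraries that share the cold contrast. *Ppargc1a* and *Ppargc1b* were each other's closest gene (r = 0.983), followed by *Myo19* (0.975) and *Hmgcs1* (0.973) for the first and *Klb* (0.981) and *Kansl2* (0.976) for the second. *Esrra* went with *Plin5* (0.993), *Letm1* (0.993) and *Grpel1* (0.992), *Esrrg* with *Slc35g1* (0.988), *Hsd17b7* (0.983) and *Prmt7* (0.975), and *Ppara* with *Ppp6c* (0.987), *Nsun4* (0.981) and *Bzw1* (0.972). For *Nrip1* they were *Abcc1* (0.900), *Cd9* (0.886) and *Ptpn9* (0.869). *Ebf2* went with *Fbln2* (0.936), *Dennd1a* (0.932) and *Ly6a* (0.930), the last of which is in the progenitor list. For the members without a call with cold these were *Snx12* (0.906), *Zfhx3* (0.861) and *Cpeb4* (0.806) for *Prdm16*, *Amigo2* (0.861), *Pawr* (0.852) and *Rnf169* (0.820) for *Irf4*, and *Git1* (0.829), *Elp4* (0.788) and *Tbp* (0.781) for *Zfp516*. None of the 3 genes nearest to *Irf4* was in the B or T cell list, and the part of lymphocytes in the *Irf4* values was not tested.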

How the data were processed

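The deposited values are a normalized signal that the authors made by scaling read counts with size factors (pyDESeq2), after filtering reads (SOAPnuke), mapping to mm10 (STAR) and counting uniquely mapped reads (featureCounts). Tool versions, the gene annotation and the strand setting of the counting are not given in the sources used here. All 12 libraries were used. Whole reads were recovered from these values (none was off by more than 0.000313 of a read), 25719476 to 29105147 reads per library. Genes without a read in some library are not listed.

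The 10 members and all gene lists were chosen with earlier results of these data known. limma 3.58.1 in R 4.3.3 (variance trend) was fitted to log2(normalized count + 1) of 13404 genes, leaving out 755 whose mean was under 10, over 4 group means. A fold change is thus on the log2(value + 1) scale, which understates changes of low genes. A gene was called at a fold over 1.5 and an unadjusted p under 0.05. The p-values measure the spread between the libraries of a group. edgeR 4.0.16 and DESeq2 1.42.0 on the recovered reads, other pseudocounts and filters, rescaling, array weights, a replicate block, a lymphocyte covariate and leaving out each library were alternatives.

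Named genes were all members and *Atf4*, in each list the 3 higher and 3 lower genes with the smallest p among those called with cold in Atf4WT mice, for each member the 3 genes with the highest correlation, and the 3 most abundant markers of a cell type whose level moves with a member. Other list genes named were chosen after their values were seen. Positions are from GENCODE vM21 (GRCm38) and promoters from RefSeq.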

Additional observations from a re-analysis of the deposited data

How the results depend on the processing

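Counts of members called with cold in each genotype were within 1.5 times of the values reported under all alternatives run. The count of members called between the cold genotypes was 1 as reported, beside 6.4% of all tested genes, and 0 by adjusted p, beside 0.0298%. It was 2 with the lymphocyte level as a covariate and 0 to 2 when single libraries were left out. The share of all genes in these last fits is not given here. At RT the count was 0, beside 0.463% of all tested genes, and 0 to 1 when single libraries were left out. For the difference of the cold responses the count of 0 became 3 with array weights (*Ppargc1a*, *Ppargc1b* and *Nrip1*), beside 5.03% of all genes. It became 1 with DESeq2 (*Nrip1*), beside 4.72% of all genes. With the lymphocyte level it was 1 (*Esrra*), and it was 0 to 3 when single libraries were left out. Where a library was left out, the other libraries set the spread. With the lymphocyte level as a covariate the sign turned for the log2 difference between the cold genotypes of *Ppargc1b* (−0.18), *Esrra* (−0.58), *Esrrg* (−0.21) and *Ppara* (−0.44), for the difference of the cold responses of *Ppara* (−0.29), for *Irf4* with cold in Atf4WT mice (−1.32) and averaged over the genotypes (−0.48), and for *Irf8* (−0.073), *Cd79a* (−0.41) and *Pou2af1* (−0.59) with cold in Atf4WT mice. It also turned for *Esrrg* at RT without replicate 2 of Atf4AKO mice (0.11; −0.65 to 0.11 over single libraries left out) and for *Nrip1* with cold in Atf4AKO mice without replicate 1 of the cold group (0.11; −0.42 to 0.11). For a value without a call, a turn of sign is counted only where the value moved by more than its SE. The cause was not tested. Over all genes, 62 were called between the genotypes at RT with limma, 138 with edgeR and 110 with DESeq2, and by adjusted p 4, 3 and 591 after cold and 0, 0 and 128 for the difference of the responses.

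The study names no pairing by replicate number, and the correlations of the deviations do not settle whether there is one. Of 18 same-numbered pairs 9 had a correlation above 0.1 (range −0.19 to 0.39), and those of replicate 1 had 0.18 to 0.39. Of 12 libraries 6 correlated best with their own number. With the replicate number as a block, 6 members were called with cold in Atf4WT and 5 in Atf4AKO mice, as without it. In the fit without the block 21.2% and 17.2% of all tested genes were called, and the shares with the block are not given here. With same-numbered differences as pairs, the rise of 0.41 in the log2 ratio of *Ppargc1a* to *Ppargc1b* had an exact permutation p of 0.0625.

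With 3 libraries a group, differences between the genotypes within the intervals given could not be shown. *Esrrg* at RT is limited by its low counts.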

Other observations

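Marker lists of other cells gave these values beside those in the report. Over all tested genes 10.9% rose and 10.3% fell with cold in Atf4WT mice, and 8.3% and 8.92% in Atf4AKO mice. Of 10 adipocyte markers, 0 rose and 2 fell with cold in Atf4WT mice, *Adipoq* (log2 fold change −0.60, limma adjusted p = 0.0148) and *Lep* (−1.12, adjusted p = 0.0529), and 0 were called in Atf4AKO mice, where they had −0.36 and −0.31. The call of *Adipoq* was lost without replicate 0 (−0.58) or 1 (−0.57) of Atf4WT mice at RT or replicate 2 after cold (−0.52), and that of *Lep* without replicate 1 at RT (−0.79) or after cold (−0.96). With the lymphocyte level as a covariate they had −0.26 and −0.19, without a call. The list median was 0.02 in Atf4WT and −0.09 in Atf4AKO mice. All 6 brown and beige adipocyte markers rose with cold in both genotypes, with medians of 4.02 and 4.08.

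Of 9 macrophage markers with values, *Cd14* was called lower in both genotypes in limma (−0.71 and −0.59), with list medians of −0.71 and −0.996. In Atf4AKO mice edgeR and DESeq2 called 0 of the 9, with 1 at an unadjusted p under 0.05 in each, and in Atf4WT mice the call was lost without replicate 1 of the cold group (−0.47) and with the lymphocyte level as a covariate (−0.67). Skeletal muscle markers were high in 3 libraries, replicate 2 of Atf4WT mice at RT, replicate 0 of Atf4WT mice after cold and replicate 1 of Atf4AKO mice after cold, at 11.57, 10.10 and 7.48 as the mean log2(normalized count + 1) of the list, against 3.58 to 4.72 in the other libraries. Of 7 epithelial markers, 2 had values, and they summed to 13.6 to 55.8 normalized counts over all libraries.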
